A study of Mus musculus with 144 samples.

Results

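Nuclear RNA of wild-type mouse liver was compared between the middle of the light phase (ZT06) and the middle of the dark phase (ZT18), where ZT (zeitgeber time) counts hours from lights on. The 12 libraries were all those labelled wild-type, nuclear RNA and ZT06 or ZT18, 6 at each time, out of 144 in the series. The series measured poly(A) site usage over the day in wild-type total, nuclear and polysomal RNA and in total RNA of Bmal1-/- mice, with 6 libraries at each of 6 times. The mice were male C57BL/6J, lived in 12 h of light and 12 h of dark, and could eat and drink at any time; their age is not given in the sources used here. Nuclei came from frozen liver that was homogenized, washed in hypotonic buffer and spun through sucrose. Their RNA was made into QuantSeq 3′ libraries, whose reads are meant to lie next to the poly(A) tail. By that design a count stands for 1 transcript end and does not grow with transcript length. Not all gene counts lay at sites of the authors' list: Arntl had means of 142 gene counts and 70.6 site counts per library. Ddit4 had 58.8 and 58.6. A smaller part of the gene counts lay at listed sites in Noct, Fbxo21, Per3 and Clock. Their means were 11.3, 112, 69.3 and 23.6 site counts per library. Gene counts per library ran from 4 to 283, 129 to 2381, 58 to 533 and 20 to 244 in these 4 genes, so their gene values rest largely on counts away from listed sites. Whether counts away from listed sites are transcript ends was not tested. The libraries held from 1662449 to 5032306 gene counts at ZT06 and from 3067655 to 4795940 at ZT18. Levels are given as CPM (counts of a gene scaled to the same total of gene counts in every library). Differences are log2 ratios from an edgeR quasi-likelihood fit with their standard error (SE), positive where ZT06 was higher, and a gene was called at a Benjamini-Hochberg adjusted p under 0.05. The labels do not say that replicates were separate mice, so p-values measure only the spread between these libraries.

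The liver clock is a feedback loop of transcription. BMAL1 (gene Arntl) and CLOCK bind E-box sequences and turn on the Per, Cry, Nr1d1, Nr1d2 and Dbp genes, PER and CRY proteins then block BMAL1 and CLOCK, and the REV-ERB receptors (Nr1d1, Nr1d2) repress Arntl through RORE sequences at which ROR receptors activate it. DBP, TEF and HLF act on D-box sequences, where NFIL3 represses. Mice rest in the light and feed mostly in the dark, and liver genes for feeding, hormone and temperature signals follow that rhythm too. RNA held in the nucleus includes freshly made transcripts and transcripts kept there, such as Neat1 and Malat1 in liver.

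Markers of the labelled tissue and fraction were looked at first, within the nuclear libraries only. Their levels in total and polysomal RNA were not set beside these, so the purity of the fraction was not tested. All 6 hepatocyte markers found in the table were tested and 0 were called, with Alb (albumin) at mean levels of 15929 and 20245 CPM at ZT06 and ZT18. Of the 6 transcripts listed as kept in hepatocyte nuclei 5 were tested, Neat1 had means of 1493 and 2528 CPM and Malat1 of 1639 and 2129 CPM, and 0 of the 5 were called, with a median of -0.04 and 2 of 5 above 0 (Neat1 -0.79, SE 0.25, adjusted p 0.139). The summed level of that list ran from 3053 to 5573 CPM at ZT06 and from 4251 to 6822 CPM at ZT18 (2-sided exact permutation test, p = 0.0346, adjusted p = 0.589 over 17 library measures), and its part in the results was not tested. Mitochondrial transcripts, a mark of cytoplasm, took 5.12% to 10% of counts at ZT06 and 6.05% to 13% at ZT18. The 8 Kupffer cell markers were all higher at ZT06, by 0.32 to 0.93, with 0 called; their summed level ran from 198 to 653 CPM at ZT06 and from 134 to 347 CPM at ZT18 (2-sided exact permutation test over 924 splits, p = 0.108, adjusted p = 0.613), none of the 8 was at 0 in all libraries, and their part in the results was not tested. In bulk RNA, fewer cells of a type and less RNA per cell cannot be told apart. ZT06 replicate 3 (the fewest counts), ZT18 replicate 3 (46.6% of its counts on its 10 highest genes) and ZT18 replicate 5 (9 of 18 values far from their group) stood apart. The mean correlation of ZT06 replicate 3 and ZT18 replicate 3 with the other 11 libraries was 0.902 and 0.904, against 0.914 for ZT18 replicate 5 and 0.910 to 0.932 for the other 9.

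Of 10979 genes tested, 128 (1.17%) were called, 62 higher (0.565%) and 66 lower (0.601%) at ZT06, and 98 (0.893%) differed at least 2-fold. The REV-ERB gene Nr1d1 and the D-box factor gene Dbp rose furthest, and Arntl and Cry1 fell furthest among the genes the naming rule covers. The median over all genes tested was -0.01. The 12 values did not overlap between the times in 126 genes (1.15%), 82 with ZT06 above (0.747%) and 44 with ZT06 below (0.401%), and these included 41 of the 62 higher and 34 of the 66 lower calls. Without the 3 libraries that stood apart 129 genes were called, 82 of them shared with the 128, and all 128 kept their direction. Replicates 1 to 3 alone gave 11 calls and replicates 4 to 6 alone gave 78.

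Over all 6 times of nuclear RNA, 54 of the 62 higher genes had their highest mean at ZT06, 6 at ZT10 and 2 at ZT02, and 31 had their lowest at ZT18. Of the 66 lower genes, 38 had their highest mean at ZT18 and 17 at ZT14, and 34 had their lowest at ZT06. The means at ZT06 and ZT18 are those that gave the calls, so these counts are a description. Of the higher genes 54 were protein coding and 3 were long noncoding RNAs in RefSeq, and of the lower genes 59 were protein coding.

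**Figure D1:**
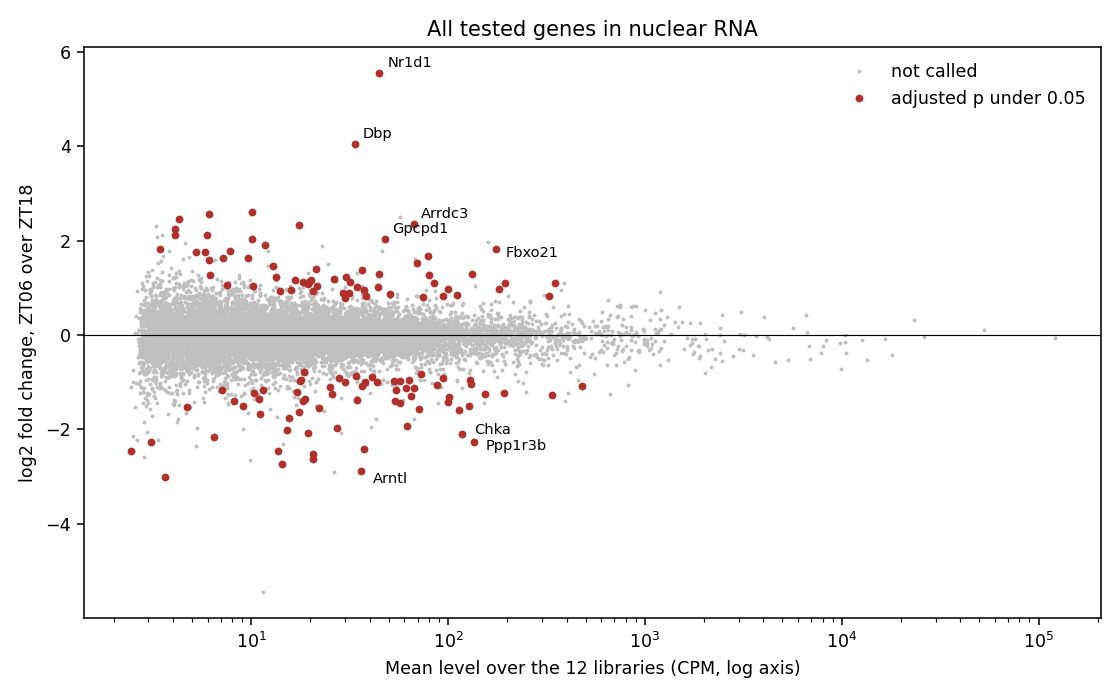
Log2 difference between ZT06 and ZT18 (vertical) against the mean level in CPM (horizontal, log axis) for the 10979 genes tested in nuclear RNA, with the 128 called genes coloured and 8 named. Nr1d1 at 5.55 and Dbp at 4.05 stand far above the other called genes, and Arntl lies at -2.88.

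The clock list gave the densest set of calls: 8 of its 20 tested members (40.0%, against 1.17% of all genes) were called, 4 higher and 4 lower at ZT06, with a list median of -0.19. Higher were Nr1d1, Nr1d2, Dbp and Per3. Arntl, Cry1 and Per1 were among the lower ones. Npas2 and Bhlhe41 were below the minimum of a mean of 10 counts. Without the 3 libraries that stood apart 6 remained called, among them Arntl, Cry1, Dbp, Nr1d1 and Nr1d2. In replicates 1 to 3 alone 5 were called, and in replicates 4 to 6 alone 7.

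Promoters are shown for the called clock genes with a match to a clock motif, because clock proteins are known to bind such letters. The windows are RefSeq sequences on GRCm38.p6, from 250 bases before to 50 after the start of the gene, and 20 of the 23 genes searched had a window. Both strands were searched, and among all 32851 windows of that length the shares with a match were the E-box CACGTG in 7.15%, the D-box TTANGTAA in 2.32%, the RORE TAGGTCA in 2.61% and the heat shock element GAANNTTC in 7.86%. Arntl (chr7:113207261-113207560, plus strand) has a RORE 30 bases past the start, Cry1 (chr10:85185005-85185304, minus strand) an E-box 60 bases before it, Per1 (chr11:69098699-69098998, plus strand) an E-box 166 bases before it, and Per3 (chr4:151044616-151044915, minus strand) D-boxes 205 and 158 bases before it. Capitals mark the matched letters, and no match overlaps another.
Arntl: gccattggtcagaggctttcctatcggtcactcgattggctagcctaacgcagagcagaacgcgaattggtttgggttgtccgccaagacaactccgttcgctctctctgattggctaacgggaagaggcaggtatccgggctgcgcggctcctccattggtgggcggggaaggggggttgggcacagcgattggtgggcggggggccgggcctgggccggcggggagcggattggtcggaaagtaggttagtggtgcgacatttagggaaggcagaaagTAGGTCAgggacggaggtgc
Cry1: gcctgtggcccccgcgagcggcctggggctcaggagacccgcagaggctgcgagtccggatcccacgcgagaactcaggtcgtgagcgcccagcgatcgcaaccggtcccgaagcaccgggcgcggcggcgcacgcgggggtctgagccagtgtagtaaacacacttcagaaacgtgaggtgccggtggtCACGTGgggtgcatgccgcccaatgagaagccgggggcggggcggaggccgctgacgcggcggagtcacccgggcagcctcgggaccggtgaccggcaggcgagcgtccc
Per1: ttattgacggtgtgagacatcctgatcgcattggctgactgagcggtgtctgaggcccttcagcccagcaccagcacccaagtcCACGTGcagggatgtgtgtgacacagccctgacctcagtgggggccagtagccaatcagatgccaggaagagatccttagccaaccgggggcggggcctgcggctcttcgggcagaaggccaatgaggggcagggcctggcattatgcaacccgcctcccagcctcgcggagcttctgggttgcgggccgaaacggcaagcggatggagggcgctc
Per3: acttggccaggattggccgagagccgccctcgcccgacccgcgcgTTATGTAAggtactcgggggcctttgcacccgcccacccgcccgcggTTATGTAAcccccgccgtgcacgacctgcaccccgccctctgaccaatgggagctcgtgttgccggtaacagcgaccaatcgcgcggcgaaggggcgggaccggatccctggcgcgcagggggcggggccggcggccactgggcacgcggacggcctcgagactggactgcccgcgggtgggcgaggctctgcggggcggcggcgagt

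A match is a run of letters and not a measured binding site. Of the 20 genes 3 held the E-box (Cry1, Per1 and the heat shock gene Hsph1), 1 the D-box and 1 the RORE. Counted by gene, 8.09%, 2.72% and 2.97% of all 27025 genes with a window held these 3 motifs. Nr1d1, Nr1d2 and Dbp were not among the genes with an E-box match.

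Nr1d1, which encodes the repressor REV-ERB alpha, ran from 64.0 to 108 CPM at ZT06 (median 89.7) and from 0.978 to 2.52 CPM at ZT18 (median 1.74). Its lowest ZT06 library was far above its highest ZT18 library. It was 46.7-fold higher at ZT06 (log2 difference 5.55, SE 0.28, adjusted p 1.10e-11; edgeR). Over the 6 times from ZT02 to ZT22 its means were 27.9, 87.8, 39.0, 7.75, 1.77 and 3.14 CPM. Nr1d2, which encodes REV-ERB beta, ran from 14.5 to 24.1 CPM at ZT06 (median 18.2) and from 1.63 to 10.2 CPM at ZT18 (median 4.39). Its groups did not overlap either, and it was 3.76-fold higher at ZT06 (log2 difference 1.91, SE 0.33, adjusted p 0.00301). Nr1d1 overlaps Thra in RefSeq, and Thra was not called (0.48, adjusted p 0.247).

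Dbp, an activator of D-box genes, ran from 39.5 to 104 CPM at ZT06 (median 52.5) and from 2.51 to 5.35 CPM at ZT18 (median 3.14). All ZT06 values were above all ZT18 values, and Dbp was 16.6-fold higher at ZT06 (log2 difference 4.05, SE 0.33, adjusted p 1.89e-07; edgeR). Its time means were 2.11, 63.5, 105, 19.7, 3.62 and 2.17 CPM, with the highest at ZT10. The related factor genes were not called: Tef had 0.72 (SE 0.24, adjusted p 0.176), Hlf -0.35 (SE 0.23, adjusted p 0.624), and Nfil3, which encodes their repressor, -0.94 (SE 0.32, adjusted p 0.194).

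Arntl, the BMAL1 gene whose promoter holds the RORE printed above, ran from 2.13 to 18.4 CPM at ZT06 (median 6.94) and from 45.9 to 104 CPM at ZT18 (median 58.1). The groups did not overlap, and Arntl was 7.37-fold lower at ZT06 (log2 difference -2.88, SE 0.34, adjusted p 7.88e-05; edgeR). Replicates 1 to 3 gave a difference of -4.05, and replicates 4 to 6 one of -2.34. Its means from ZT02 to ZT22 were 47.9, 8.85, 2.81, 26.7, 63.1 and 76.5 CPM. Clock, the gene of its partner, had -0.77 (SE 0.23, adjusted p 0.127) and was not called. Rora, the gene of an activator at ROREs, had -0.08 (SE 0.20, adjusted p 0.936) and was not called either.

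The repressor genes of the loop did not all move one way. Cry1 ran from 2.76 to 5.31 CPM at ZT06 (median 3.30) and from 10.4 to 62.3 CPM at ZT18 (median 15.7), with no overlap, and was 6.65-fold lower at ZT06 (log2 difference -2.73, SE 0.36, adjusted p 1.85e-04; edgeR). Cry2 had 0.05 (SE 0.18, adjusted p 0.964). Per1 ran from 7.70 to 17.6 CPM at ZT06 (median 10.2) and from 14.2 to 56.0 CPM at ZT18 (median 20.8), with overlapping groups, and was 2.56-fold lower at ZT06 (log2 difference -1.35, SE 0.30, adjusted p 0.026). Its means from ZT02 to ZT22 were 2.41, 10.7, 38.3, 23.3, 26.8 and 9.87 CPM. Leaving out ZT06 replicate 4, 5 or 6 or ZT18 replicate 2 or 5 ended the call of Per1 (adjusted p 0.0578 to 0.0820), and so did leaving out the 3 libraries that stood apart (adjusted p 0.0674) or fitting all 36 nuclear libraries together (adjusted p 0.0579).

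Per3, the period gene with D-boxes in its window, ran from 33.2 to 152 CPM at ZT06 (median 116) and from 18.2 to 48.0 CPM at ZT18 (median 37.9). One ZT06 library fell within the ZT18 range, and Per3 was 2.87-fold higher at ZT06 (log2 difference 1.52, SE 0.30, adjusted p 0.0113; edgeR). Its time means were 7.23, 104, 149.8, 81.9, 35.2 and 11.4 CPM, highest at ZT10. The call ended without the 3 libraries that stood apart (1.31, adjusted p 0.123) and with all 36 nuclear libraries in the fit (adjusted p 0.143), and held when any 1 library was left out. Per2 ran from 4.74 to 37.5 CPM at ZT06 (median 7.69) and from 27.7 to 101 CPM at ZT18 (median 64.1) and was not called (-1.95, SE 0.53, adjusted p 0.129). ZT06 replicates 1 and 2 had 35.8 and 37.5 CPM of Per2, while the other 4 had at most 7.82. Per2 passed in replicates 4 to 6 alone (-3.70) and without ZT06 replicate 1 (-2.37, adjusted p 0.0452), and had -0.78 in replicates 1 to 3.

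The kinase genes Csnk1d (0.04, SE 0.20, adjusted p 0.971) and Csnk1e (0.01, SE 0.24, adjusted p 0.991), which act on PER proteins, were not called. Neither were the repressor genes Bhlhe40 (-0.34, SE 0.36, adjusted p 0.816) and Ciart (-0.29, SE 0.74, adjusted p 0.94). The SE of Ciart was 0.74, the widest among the clock genes, at 0 to 8.5 CPM.

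**Figure D2:**
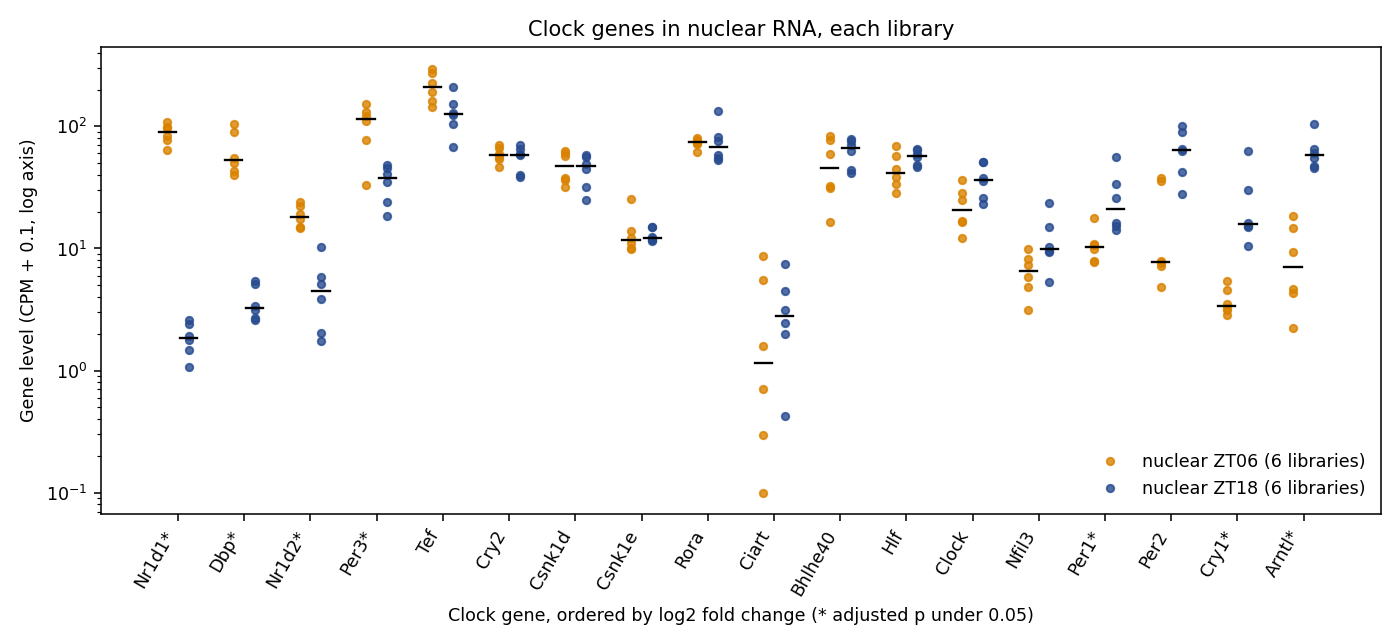
CPM of 18 tested clock genes in each of the 6 ZT06 and 6 ZT18 nuclear libraries (points, log axis), with bars at the group medians and a star on the called genes. Nr1d1, Nr1d2 and Dbp have every ZT06 point above every ZT18 point, and Arntl and Cry1 the reverse.

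Among the 10 largest rises of the naming rule, 7 genes lay outside the clock list. Arrdc3, which encodes an arrestin-like protein of receptor trafficking and energy balance, ran from 64.4 to 190.4 CPM at ZT06 (median 89.4) and from 9.59 to 27.4 CPM at ZT18 (median 25.3). Every ZT06 value was above every ZT18 value (5.13-fold; log2 difference 2.36, SE 0.32, adjusted p 3.23e-04; edgeR). Gm15998, a long noncoding RNA inside the span of Efna3 in RefSeq, was 5.01-fold higher at ZT06 (log2 difference 2.32, SE 0.29, adjusted p 7.88e-05). Gpcpd1, which encodes a glycerophosphocholine phosphodiesterase, ran from 36.1 to 120.5 CPM at ZT06 (median 74.4) and from 10.4 to 29.7 CPM at ZT18 (median 14.5). It was 4.09-fold higher at ZT06 with no overlap (log2 difference 2.03, SE 0.27, adjusted p 1.64e-04), and its mean at ZT10, 80.7 CPM, was near that at ZT06, 77.5 CPM.

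Abcg8, one part of the sterol export pump of hepatocytes, ran from 93.1 to 147 CPM at ZT06 (median 124) and from 28.5 to 53.1 CPM at ZT18 (median 34.0). The groups stood well apart (3.18-fold; log2 difference 1.67, SE 0.22, adjusted p 1.85e-04; edgeR). Its partner gene Abcg5 overlaps it on the other strand and had 1.14 (adjusted p 0.0534); whether counting used strand is not given in the sources used here, so reads of the overlap cannot be told apart. Junb, an immediate early transcription factor gene, was 2.63-fold higher (log2 difference 1.40, SE 0.23, adjusted p 0.00167), and Syt1, which encodes a synaptotagmin, 2.61-fold (log2 difference 1.38, SE 0.23, adjusted p 0.00231); both kept ZT06 above ZT18 in every library. Fbxo21, a ubiquitin ligase subunit gene, ran from 117 to 473 CPM at ZT06 (median 227) and from 36.6 to 171 CPM at ZT18 (median 61.2), with overlap through ZT18 replicate 5. Its 3.53-fold rise (log2 difference 1.82, SE 0.41, adjusted p 0.0464) lost the call on leaving out ZT06 replicate 3, 4, 5 or 6 or ZT18 replicate 1, 2, 3, 4 or 6 (adjusted p 0.0523 to 0.121).

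Of the 10 largest falls 8 lay outside the clock list, and 7 of these are reported. Chka, which encodes choline kinase alpha, the first enzyme of phosphatidylcholine synthesis from choline, ran from 28.9 to 69.2 CPM at ZT06 (median 44.3) and from 101 to 260.1 CPM at ZT18 (median 187). It was lower at ZT06 in every library (4.29-fold; log2 difference -2.10, SE 0.25, adjusted p 4.84e-05; edgeR). Ppp1r3b, which encodes the subunit that brings protein phosphatase 1 to glycogen, ran from 27.2 to 71.6 CPM at ZT06 (median 44.0) and from 182 to 256 CPM at ZT18 (median 220.0). The gap between its groups was wider than the range within ZT06 (4.80-fold; log2 difference -2.26, SE 0.27, adjusted p 4.84e-05).

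Noct encodes nocturnin, a protein of the deadenylase family. It ran from 1.18 to 13.8 CPM at ZT06 (median 3.79) and from 9.78 to 59.1 CPM at ZT18 (median 37.6), and the groups overlapped. It was 6.14-fold lower at ZT06 (log2 difference -2.62, SE 0.55, adjusted p 0.0402; edgeR), with -1.53 from replicates 1 to 3 and -4.21 from replicates 4 to 6. Tsku, which encodes the secreted protein Tsukushi, ran from 3.26 to 24.2 CPM at ZT06 (median 8.30) and from 26.4 to 106 CPM at ZT18 (median 62.6) without overlap (5.34-fold; log2 difference -2.42, SE 0.50, adjusted p 0.0398). Of single libraries, leaving out any but replicate 1 of either time ended the call of Noct (adjusted p 0.0509 to 0.105). Leaving out ZT06 replicate 3, 5 or 6 or ZT18 replicate 2, 4, 5 or 6 ended that of Tsku (adjusted p 0.0649 to 0.0887). Without the 3 libraries that stood apart neither was called (adjusted p 0.169 and 0.132). The falls of Cdkn1a, Ddit4 and Hsph1 are given with the glucocorticoid and heat shock lists.

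All 21 tested genes of cytosolic heat shock proteins and co-chaperones had a lower fitted level at ZT06, with a median of -0.76 against -0.01 over all genes, and 5 of them (23.8%, against 1.17% of all genes) were called. These proteins help other proteins fold, and their genes are induced by heat through the factor HSF1. With the 3 libraries that stood apart left out 7 were called, Hspb1 and Stip1 being added. In replicates 1 to 3 alone 0 were called, with 15 of 20 lower (median -0.55), and in replicates 4 to 6 alone 3, with 20 of 21 lower (median -0.98).

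Hsph1, which encodes a large HSP70-type nucleotide exchange factor, carried the largest called change of the list. Its promoter window (chr5:149636287-149636586, minus strand) holds an E-box 2 bases past the start and the heat shock letters 41 bases past it, both in capitals below; from the other start that RefSeq gives this gene they lie 19 bases before and 20 bases past. Among the 20 genes searched, 2 (Hsph1 and Abcg8) held a heat shock match, beside 9.04% of all 27025 genes with a window. The match is given as a description only.
Hsph1: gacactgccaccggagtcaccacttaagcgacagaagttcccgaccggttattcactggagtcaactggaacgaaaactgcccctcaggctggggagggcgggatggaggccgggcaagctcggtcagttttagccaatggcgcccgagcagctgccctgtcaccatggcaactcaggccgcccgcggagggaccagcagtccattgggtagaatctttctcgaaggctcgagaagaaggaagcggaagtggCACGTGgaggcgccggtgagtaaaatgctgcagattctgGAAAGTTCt

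Hsph1 ran from 4.14 to 13.2 CPM at ZT06 (median 7.22) and from 17.0 to 48.5 CPM at ZT18 (median 29.6). The groups did not overlap, and the gene was 4.23-fold lower at ZT06 (log2 difference -2.08, SE 0.30, adjusted p 3.23e-04; edgeR). Hsp90aa1, the gene of the inducible HSP90, ran from 51.7 to 84.2 CPM at ZT06 (median 66.2) and from 97.1 to 309.8 CPM at ZT18 (median 172). It too was lower at ZT06 in every library (2.84-fold; log2 difference -1.50, SE 0.26, adjusted p 0.00327), while Hsp90ab1, the gene of the constitutive form, ran from 607 to 739 CPM at ZT06 (median 670.2) and from 806 to 1629 CPM at ZT18 (median 1029) without overlap and was not called (-0.74, SE 0.22, adjusted p 0.119). Dnaja1, an HSP40 co-chaperone gene, had -0.99 (SE 0.20, adjusted p 0.0128) with no overlap, and Chordc1, an HSP90 co-chaperone gene, -0.99 (SE 0.20, adjusted p 0.01) with overlap. Without ZT06 replicate 5 Dnaja1 had an adjusted p of 0.0505. The fifth called member, Hspa8, lay outside the naming rule and was chosen after its values were seen; its means were 29.0 and 52.9 CPM at ZT06 and ZT18 (-0.89, SE 0.20, adjusted p 0.0284).

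The endoplasmic reticulum folding list showed lower fitted levels in 22 of 24 members (median -0.42), with 1 called (4.17%, against 1.17% of all genes). That gene, Manf, encodes a secreted stress protein and ran from 50.5 to 175 CPM at ZT06 (median 82.5) and from 110.1 to 374 CPM at ZT18 (median 199). Its groups overlapped (2.38-fold lower; log2 difference -1.25, SE 0.30, adjusted p 0.0456; edgeR). Its call ended on leaving out ZT06 replicate 1, 2, 3, 4 or 6 or ZT18 replicate 2, 4 or 6 (adjusted p 0.0856 to 0.129). Hspa5, the gene of the main chaperone BiP, had -1.06 (SE 0.28, adjusted p 0.075) and was not called; without ZT18 replicate 3 it passed (-1.19, adjusted p 0.0352). Hspa5 and Hyou1 were the 2 calls of the list without the 3 libraries that stood apart.

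Of the 16 tested genes of the glucocorticoid receptor and its targets 5 (31.2%, against 1.17% of all genes) were called, all 5 lower at ZT06, and the list median was -0.70. Corticosterone in mice rises toward the onset of the dark phase and acts through the receptor gene Nr3c1, which had -0.21 (SE 0.19, adjusted p 0.751). The list had 5 calls and a median of -0.35 without the 3 libraries that stood apart. Replicates 1 to 3 alone gave 0 calls and a median of -0.01, with 8 of 16 lower, and replicates 4 to 6 alone 4 calls and a median of -1.16.

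Tsc22d3, which encodes the glucocorticoid-induced leucine zipper GILZ, ran from 15 to 36.1 CPM at ZT06 (median 26.4) and from 52.2 to 193 CPM at ZT18 (median 83.1). It was lower at ZT06 in every library (3.81-fold; log2 difference -1.93, SE 0.25, adjusted p 1.64e-04; edgeR). Ddit4, a gene whose product restrains mTORC1, ran from 3.38 to 8.5 CPM at ZT06 (median 6.37) and from 14.8 to 45.3 CPM at ZT18 (median 21.3), without overlap (4.06-fold; log2 difference -2.02, SE 0.28, adjusted p 2.22e-04). Cdkn1a, the p21 cell cycle inhibitor gene, ran from 2.66 to 12.6 CPM at ZT06 (median 5.2) and from 17.0 to 67.2 CPM at ZT18 (median 29.4). Its groups did not overlap (5.77-fold; log2 difference -2.53, SE 0.49, adjusted p 0.0189), and it lost the call without ZT06 replicate 5 or 6 (adjusted p 0.0508 and 0.0603) and with all 36 nuclear libraries in the fit (adjusted p 0.114). Fkbp5, a co-chaperone of the receptor, had -1.76 (SE 0.33, adjusted p 0.00618) with overlap, and the phosphatase gene Dusp1 -1.64 (SE 0.31, adjusted p 0.00654) without. Zbtb16 (-1.51, SE 0.38, adjusted p 0.0668) and Lcn2 (1.90, SE 1.15, adjusted p 0.603), also on the list and chosen after their values were seen, were not called.

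In the glucose and glycogen list 3 of 19 (15.8%, against 1.17% of all genes) were called, all lower at ZT06, and the list median was -0.37. Ppp1r3b and Tat were among them. Tat, which encodes tyrosine aminotransferase and is also a glucocorticoid target, ran from 40.3 to 89.6 CPM at ZT06 (median 51.7) and from 73.0 to 248 CPM at ZT18 (median 190.0), with overlap (3.02-fold; log2 difference -1.59, SE 0.27, adjusted p 0.00301). Pck1, the gluconeogenic gene with the highest level on the list, had -0.41 (SE 0.43, adjusted p 0.807). Without the 3 libraries that stood apart the 3 calls were Ppp1r3b, Ppp1r3c and Tat, and the list median was 0.17, of the other sign.

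Of the methionine, urea and amino acid list 2 of 23 (8.70%, against 1.17% of all genes) were called, both lower at ZT06 (median -0.36), and Bhmt was one of them. Bhmt, whose enzyme remethylates homocysteine with betaine, ran from 143 to 258 CPM at ZT06 (median 206) and from 277 to 675 CPM at ZT18 (median 445), with no overlap (2.40-fold; log2 difference -1.26, SE 0.24, adjusted p 0.00717; edgeR). Its adjusted p was 0.0561 with all 36 nuclear libraries in the fit. The gene value mixes sites that moved unequally. The levels of 2 inner sites differed by -4.02 and -2.73, and those of 3 sites at the gene end by -0.02, -0.42 and -0.58.

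Lists with 1 call each gave Por, the electron donor of liver cytochromes P450 (-1.08, SE 0.26, adjusted p 0.0456; 1 of 22 tested), Acot1, an acyl-CoA thioesterase gene with close paralogs among which short reads can be split (-1.66, SE 0.34, adjusted p 0.013; 1 of 18), Noct among 23 genes of cleavage and poly(A) factors, Cirbp, the cold-inducible RNA-binding protein gene (1.63, SE 0.37, adjusted p 0.0284; 1 of 16), Junb among 15 immediate early and cytoskeleton genes, and Gabarapl1, an autophagosome gene (1.09, SE 0.22, adjusted p 0.0128; 1 of 19), by edgeR. Over all genes tested 1.17% were called, beside 4.35% to 6.67% in these lists. Each list share rests on 1 gene, so nothing is read from it about the list. Cirbp ran from 9.18 to 19.0 CPM at ZT06 (median 14.8) and from 0.778 to 8.80 CPM at ZT18 (median 4.16), so that it was higher at ZT06 in every library, and it lost the call without ZT06 replicate 1, 3, 5 or 6 or ZT18 replicate 2 or 6 (adjusted p 0.0520 to 0.0825). Por lost it in 9 of 12 omissions of 1 library (all but ZT06 replicate 3 and ZT18 replicates 1 and 4; adjusted p 0.0511 to 0.132) and with all 36 nuclear libraries in the fit (adjusted p 0.112), and Acot1 without ZT06 replicate 6 (adjusted p 0.0508). Neither was called without the 3 libraries that stood apart.

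Cholesterol synthesis (23 tested), fatty acid synthesis (21), bile acid (18) and ribosome biogenesis genes (24) had 0 called by edgeR, with 2, 2, 3 and 5 genes at an unadjusted p under 0.05; DESeq2 called 1 each in the first and the last. Their medians were -0.14, -0.24, -0.01 and -0.28. Nolc1, a nucleolar factor gene chosen after its values were seen, had -1.30 (SE 0.33, adjusted p 0.0583) and was the one called by DESeq2 in the last list. Scd1, the desaturase gene with the highest level of its list, ran from 1646 to 9187 CPM at ZT06 (median 3375) and from 527 to 13551 CPM at ZT18 (median 2101) and its SE was 0.87, so no difference was detectable at this spread.

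**Figure D3:**
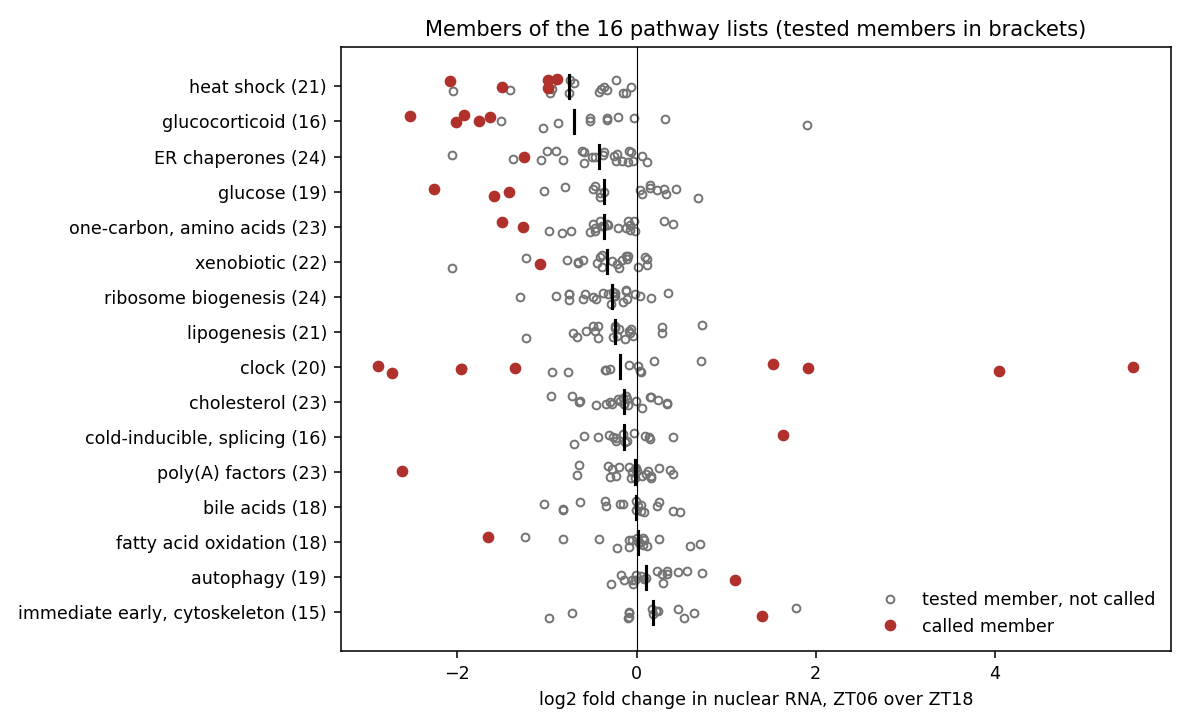
Log2 difference between ZT06 and ZT18 for the tested members of 16 gene lists (points; red where called), with a black tick at each list median. All 21 heat shock members lie below 0, and clock genes spread from -2.88 to 5.55.

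At the level of single poly(A) sites, 53 of 12600 sites tested (0.421%) were called, 21 higher (0.167%) and 32 lower (0.254%) at ZT06, in 41 genes. Of these 48 lay in 37 genes also called at the gene level, so 37 of the 128 called genes had a called site. The site with most counts was not called in Nr1d2, Per1, Per3, Fbxo21 and Syt1 (edgeR adjusted p 0.166, 0.175, 0.102, 0.119 and 0.0536). That of Noct was not tested. Those of Syt1 and Per3 lay 144640 and 14521 bp before the annotated gene end. In 11 genes 2 or more sites were called, and in 0 of them did sites move in both directions. Positions are those of the authors' site list (mm10), set against RefSeq gene ends.

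Nr1d1 had 2 called sites near its 3′ end, chr11:98767928-98767975 (5.16, SE 0.36, adjusted p 9.88e-08) and chr11:98768119-98768156 (6.87, SE 0.66, adjusted p 1.07e-05; edgeR). Dbp likewise had chr7:45709862-45709997 (5.09) and chr7:45710015-45710158 (3.23). The 2 called Arntl sites, chr7:113243577-113243616 (-3.73) and chr7:113243662-113243709 (-2.45), lay 70510 and 70417 bp before the annotated gene end, within the gene. Chka had sites 28491 and 26742 bp before its end (-1.93 and -2.64). Gpcpd1 had 1 site 24900 bp before its end (2.37) and 1 at its end (2.64). In all, 14 called sites lay more than 1000 bp before the gene end. Whether such inner sites end in a genuine tail was not tested.

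The 5 called sites whose gene was not called were in 4 genes, chosen here after their values were seen. Wwox, a tumour suppressor gene, had 2 sites higher at ZT06 (2.25 and 2.33, adjusted p 0.00845 and 0.0368). Usp2, a deubiquitinase gene under the clock, had 1 lower site (-2.07, adjusted p 0.0227). Hspa5 had 1 lower site (-2.0, adjusted p 0.0439), and Cyp7a1, the rate-limiting enzyme gene of bile acid synthesis, 1 (-2.21, SE 0.48, adjusted p 0.0487; edgeR).

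Site usage, the share of a gene's site counts at one site, changed at 1 of 7735 sites (0.0129%) in 2664 genes, and 250 sites had an unadjusted p under 0.05. The site lies inside Bhmt at chr13:93621830-93622006 on the minus strand, 4939 bp before the gene end. It took from 0.673% to 4.11% of Bhmt site counts at ZT06 (median 3.0%) and from 9.24% to 27.0% at ZT18 (median 20.4%), so the groups did not overlap. The usage difference was -2.76 (SE 0.29, adjusted p 0.00155; edgeR) and the level difference of the site -4.02 (SE 0.40, adjusted p 1.07e-05). Bhmt had means of 638 and 1678 site counts per library at the 2 times, and 5 of its 6 sites passed the filter of the usage test.

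A second inner site of Bhmt, 8380 bp before the end, took 3.70% to 17.8% at ZT06 and 23.3% to 37.3% at ZT18; its level fell by 2.73 (adjusted p 4.99e-04), and its usage did not pass (-1.52, adjusted p 0.302). The 3 sites at the end of the gene had median shares of 24.6%, 26.2% and 36.7% at ZT06 and of 8.78%, 13% and 21.9% at ZT18. Their levels differed by -0.02, -0.42 and -0.58, none called. Over ZT02 to ZT22 the mean share of the called site was 10.2%, 2.78%, 9.99%, 16.5%, 19.9% and 18.9%. In total RNA it was 0.166% at ZT06 and 1.90% at ZT18, in polysomal RNA 0.0889% and 2.22%, and in Bmal1-/- total RNA 1.70% and 1.31%.

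**Figure D4:**
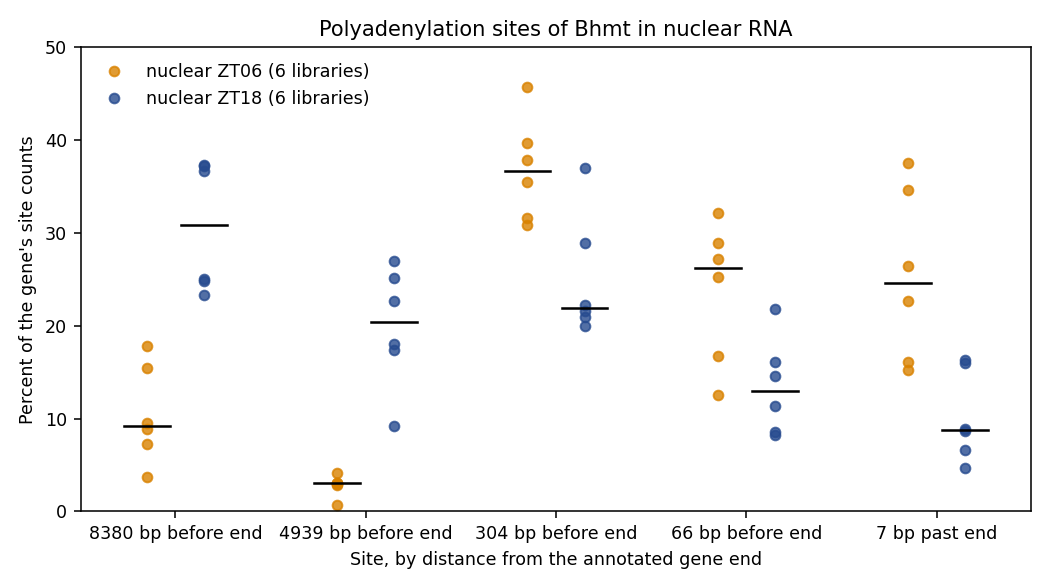
Percent of Bhmt site counts at 5 of its 6 sites, those that passed the usage filter, in the 6 ZT06 and 6 ZT18 nuclear libraries (points). At the site 4939 bp before the gene end the ZT06 points lie at or below 4.11% and the ZT18 points at or above 9.24%.

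The same times were then compared in the other RNA of the series, each in a fit of its own. Total RNA gave 665 calls of 11799 genes (5.64%; 2.53% higher and 3.1% lower at ZT06), polysomal RNA 236 of 10678 (2.21%; 0.843% higher and 1.37% lower), and Bmal1-/- total RNA 0 of 12108 by edgeR, with 411 at an unadjusted p under 0.05. Nuclear and total libraries that share a number deviated together, so they are not independent samples. Of the 62 genes higher in nuclear RNA at ZT06, 55 were tested in total RNA, 55 were higher there and 39 were called (median 0.90). Of the 66 lower genes, 63 were tested, 63 were lower and 51 were called (median -1.23). In polysomal RNA 51 of 55 and 57 of 62 had the same direction, and 15 and 26 were called. In Bmal1-/- total RNA 29 of 55 and 45 of 61 had it, and 0 were called, with medians of 0.03 and -0.16.

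The difference of the time change between nuclear and total RNA was tested directly, and 0 of 11708 genes passed by edgeR (304 at an unadjusted p under 0.05, and 0 by DESeq2, with 357). Because these libraries pair, a fit with time and replicate number together as a block was also made. It too gave 0, with 452 at an unadjusted p under 0.05. Against polysomal RNA 0 of 11192 passed (911 at an unadjusted p under 0.05), while DESeq2 called 7. The named genes with the widest gaps were therefore not shown to differ between the kinds of RNA, and their values are given side by side.

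Per3 had 1.52 in nuclear, 0.52 in total and -0.93 in polysomal RNA, a gap between nuclear and polysomal RNA of 2.43, SE 0.56, adjusted p 0.288. Tef had 0.72 in nuclear, -0.18 in total and -1.21 in polysomal RNA (gap 1.90, SE 0.40, adjusted p 0.106), so its nuclear value was positive and its polysomal value negative. Arntl had -2.88 in nuclear, -2.53 in total and -0.75 in polysomal RNA (gap -2.13, SE 0.52, adjusted p 0.347; edgeR). Bhmt had -1.26 in nuclear, -0.40 in total and 0.58 in polysomal RNA. Its gap to polysomal RNA, -1.86 (SE 0.34, adjusted p 0.0597), was the nearest to the threshold among the named genes. The Bhmt gene counts hold different transcript ends in each kind of RNA. Its 2 inner sites took mean shares of 2.78% and 10.4% of nuclear site counts at ZT06 and 19.9% and 30.7% at ZT18. In wild-type total and polysomal RNA each took at most 2.22% on average. The part of these sites in the gap was not tested. Nr1d1 (5.55 in nuclear, 5.77 in total and 4.99 in polysomal RNA) and Cry1 (-2.73 in nuclear, -2.63 in total and -2.33 in polysomal RNA) had like values in all of them. The gap between nuclear and total RNA was largest in Per3 among these genes (0.99, SE 0.50).

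In Bmal1-/- total RNA, Nr1d1 had means of 0.664 and 0.847 CPM at ZT06 and ZT18 and was below the count minimum, Dbp had 0.28 (SE 0.30) and Cry1 -0.36 (SE 0.16). Among genes outside the clock list, Acot1 had -1.81 (SE 0.57) and Ddit4 -1.18 (SE 0.54) in Bmal1-/- total RNA, beside -1.66 and -2.02 in wild-type nuclear RNA, and neither was called in Bmal1-/- mice (edgeR adjusted p 0.999). Whether the time change differs between the genotypes was not tested here.

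**Figure D5:**
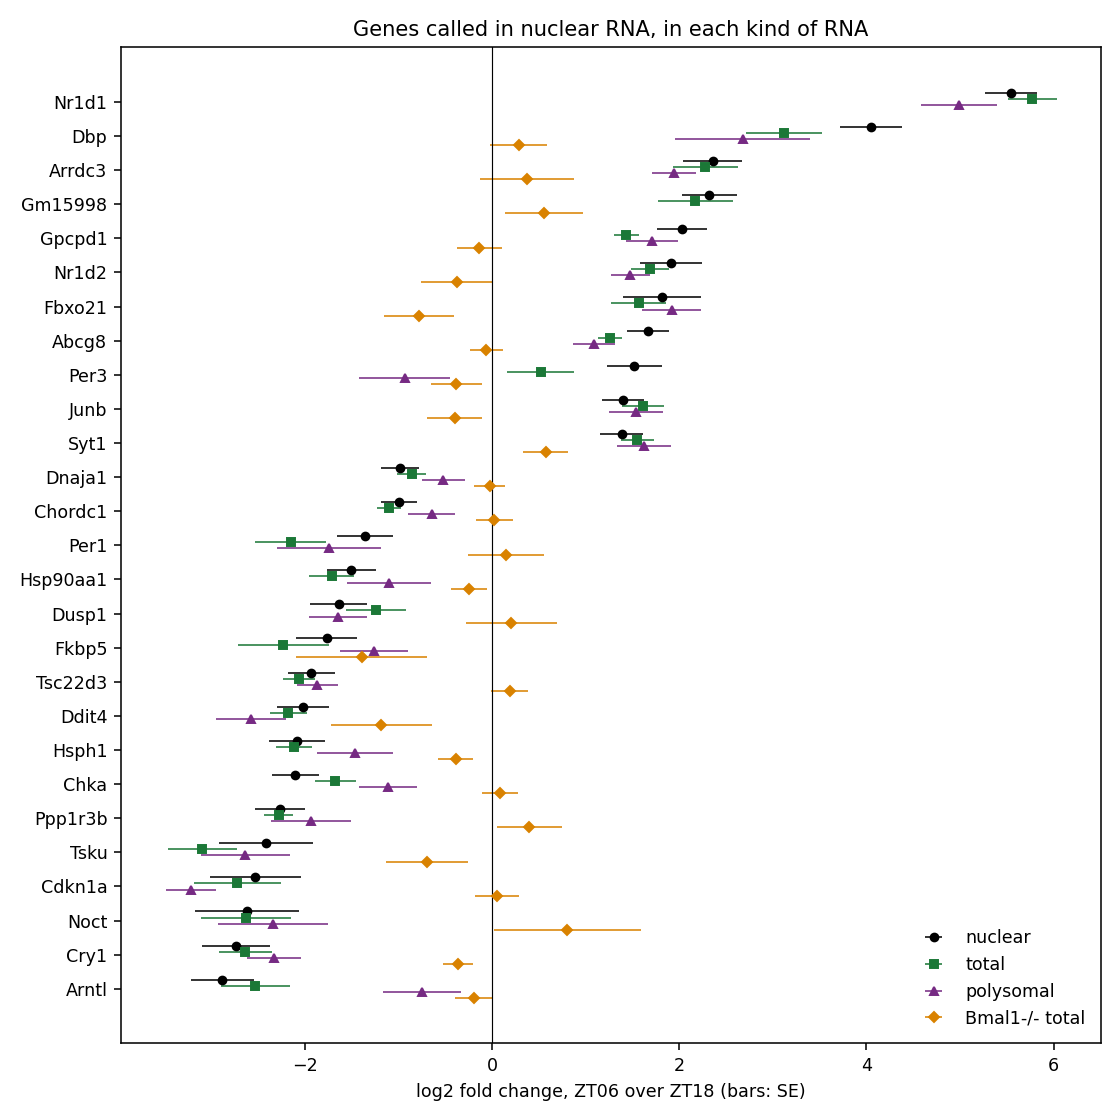
Log2 difference between ZT06 and ZT18, with SE bars, in nuclear, total and polysomal wild-type RNA and Bmal1-/- total RNA for 27 called genes of the nuclear comparison. The 3 wild-type values are spread widest in Per3 (1.52 to -0.93) and Arntl (-2.88 to -0.75). The Bmal1-/- value of most genes lies nearer to 0 than their nuclear value. Those 2 values differ in both genotype and kind of RNA. The genes were chosen by their nuclear call, which favours large nuclear values, so the gap is a description only.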

How the data were processed

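The gene table and the poly(A) site table held raw read counts per library as deposited by the authors. Reads were handled with STAR 2.4.2a, HOMER and edgeR on mm10 and GRCm38.p5, per the submitters' processing notes, which give no role or order. From these counts, CPM (counts scaled by a library's total gene counts) and differences were computed. Features whose mean over the 12 libraries reached 10 counts were fitted with edgeR 4.0.16 (R 4.3.3, TMM factors, robust quasi-likelihood F test, 6 libraries against 6, no covariate), and p-values were adjusted by Benjamini-Hochberg over all features tested, with a threshold of 0.05. Site usage was tested with the gene's site total plus 0.5 as an offset, for genes with a mean of at least 50 site counts and sites with at least 5% of them. Sites were given to genes by strand and position in RefSeq: 27489 of 29199 filtered sites went to 9392 genes. DESeq2 1.42.0 served as an alternative test, and Python 3.11.15 (pandas 2.3.3, matplotlib 3.10.9) for tables and figures. Leaving out the 3 libraries that stood apart together was an alternative chosen after seeing the data. The gene fit and the usage fit were tested on simulated data.

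Named were all tested clock genes, the 10 largest rises and falls among called genes whose mean reached 50 counts and whose direction was shared by replicates 1 to 3 and 4 to 6, up to 4 called members of each of 16 lists and the highest member of each, sites called for usage, and the main site of these genes. The comparison, members and lists were chosen with earlier results of these data known. Some named members are not reported here, though they stay in the counts. Promoter windows came from RefSeq GRCm38.p6, matched by symbol. Replicate numbers were not taken to pair ZT06 with ZT18, where the correlation of deviations was above 0.1 in 3 of 6 pairs. It ran from 0.025 to 0.391 there (mean 0.16, against -0.0307 with other numbers), so a weak part shared by number may exist and was not tested. The numbers paired nuclear with total libraries (12 of 12 pairs above 0.1, 0.177 to 0.528). No such pairing was seen between nuclear and polysomal libraries (0 of 12 pairs above 0.1, -0.213 to 0.042, own number best in 0), though a block was also fitted for that difference. No 2 libraries of a time held identical counts or agreed within sampling noise (smallest chi-square over degrees of freedom 14.2 in 30 pairs).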

Additional observations from a re-analysis of the deposited data

Results flagged for a closer look

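In 164 groups of 6 nuclear libraries 18 values lay far from the other 5. The rule would flag about 1 in 20 groups (8.2 of 164) by chance if values were independent and normally distributed. The values were not logged and the groups share libraries, so the count of 18 cannot be set against that rate. Only the value of Abcc2 lay below the other 5. Of the 18 values, 9 came from ZT18 replicate 5. That library had 104 CPM of Arntl (the other 5 had 45.9 to 65.2), 45.3 CPM of Ddit4 (14.8 to 23.9), 234 CPM of Gabarapl1 (81.5 to 118), 37.0 CPM of Acot1 (10.6 to 15.3) and 171 CPM of Fbxo21 (36.6 to 81.7). It also had 1687 CPM of Pck1 (222 to 580.5), 4933 CPM of Mat1a (1518 to 2623) and 134 CPM of Rora (53.2 to 82.2). Its mean distal site usage was 48.6% (41.3% to 43.8%).

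ZT18 replicate 3 had 13551 CPM of Scd1 (the other 5 had 527 to 5186), 46.6% of its counts on its 10 highest genes (22.8% to 31.6%) and 4206 CPM of summed red cell and neutrophil markers (664 to 1956). ZT18 replicate 1 had 159 CPM of summed adipocyte markers, of which Plin1 and Lep were at 0 in all 12 libraries (the other 5 had 0 to 20.1). ZT18 replicate 6 had 24.7 CPM of Syt1 (17.4 to 19.8). At ZT06, replicate 6 had 47.5 CPM of Gm15998 (22 to 30.8) and 25.4 CPM of Csnk1e (9.77 to 13.9), replicate 2 had 17.6 CPM of Per1 (7.70 to 10.8), and replicate 1 had 640.1 CPM of Abcc2 (831 to 914). No cause of these values was tested.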

How the results depend on the processing

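The count of 128 called genes became 267 with DESeq2 and 286 with a minimum of 1 count in total over the 12 libraries. It became 11 in replicates 1 to 3 alone and 78 in replicates 4 to 6 alone. When 1 library was left out it ran from 70 to 123. The fewest were without ZT06 replicate 6 (70), ZT06 replicate 5 (73), ZT18 replicate 2 (75) and ZT18 replicate 6 (77). The count of 53 called sites became 174, 89, 4 and 15 under the same first 4 settings, 99 when all 36 nuclear libraries shared the spread, and 28 to 64 when 1 library was left out (28 without ZT18 replicate 2, 29 without ZT06 replicate 6 or ZT18 replicate 6, 33 without ZT06 replicate 5). Usage calls (1) became 0 in replicates 1 to 3 and 2 with all 36 libraries, and stayed at 1 without any 1 library. The nuclear to polysomal difference (0) gave 7 with DESeq2, 4 with a minimum of 1 count in total and 9 in replicates 4 to 6.

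With the replicate number as a block, 179 genes (117 of the 128 among them), 110 sites and 2 usage sites were called. With time and replicate number together as a block, the nuclear to total and nuclear to polysomal differences gave 0. Since the numbers were not taken to pair ZT06 with ZT18 (own number best in 2 of 6), the block by number alone is given here only. Among named genes the block by number alone ended the call of Noct (adjusted p 0.138) and added Clock (0.0398).

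No called gene among the 34 followed changed direction in the alternatives run, while 14 genes that were not called did, with adjusted p of at least 0.603. Replicates 1 to 3 and 4 to 6 could not turn the largest rises and falls, which were named only if both shared their direction. The other alternatives used many of the same libraries. The value turned in replicates 1 to 3 for Errfi1 (0.0066), Bhlhe40 (0.27), Rora (0.34), Ciart (0.96), Creb3l3 (-0.19), Pabpn1 (-0.28), Csnk1d (-0.11), Csnk1e (-0.19) and Lamp1 (0.0023). The value turned in replicates 4 to 6 for Cry2 (-0.00054), Scd1 (0.092) and Lamp1 (0.0031). The value turned with the replicate block for Scd1 (0.43) and Csnk1e (-0.028). The value turned without the 3 libraries that stood apart for Pck1 (0.17), Actb (-0.021), Mat1a (0.22), Rora (0.042), Ciart (0.22), Csnk1d (-0.039) and Scd1 (0.35). On leaving out 1 library the values ran from -0.014 to 0.17 for Creb3l3, -0.040 to 0.12 for Cry2, -0.053 to 0.12 for Csnk1d, -0.18 to 0.10 for Csnk1e, -0.20 to 0.077 for Lamp1, -0.24 to 0.071 for Mat1a, -0.082 to 0.18 for Pabpn1, -0.72 to 0.071 for Pck1, -0.16 to 0.070 for Rora and -0.53 to 1.05 for Scd1. Among called genes, 62 higher and 66 lower became 7 and 4 in replicates 1 to 3 and 36 and 34 without ZT06 replicate 6. The median of the glucose list turned from -0.37 to 0.17 without the 3 libraries that stood apart, to 0.04 in replicates 1 to 3 and to 0.02 with the replicate block. The cause of the changed counts was not tested, except that fewer libraries were used where some were left out and more genes were tested at the lower minimum. Depth limits the genes of low count most: Npas2 and Bhlhe41 could not be tested, and Ciart had an SE of 0.74.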

Other observations

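Some called genes had means under 50 counts and so lay outside the naming rule; the 3 here were chosen after their values were seen. Trib3, a pseudokinase gene induced by nutrient stress, had means of 10.4 CPM at ZT06 and 1.70 CPM at ZT18 (2.56, SE 0.41, adjusted p 0.00122; edgeR). Clec2h, a C-type lectin gene, had 17.4 and 2.69 CPM (2.60, SE 0.40, adjusted p 9.56e-04). Tnnc1, the cardiac and slow muscle troponin C gene, had 0.828 and 6.42 CPM (-3.00, SE 0.49, adjusted p 0.00198). In all 3 the values of the 2 times did not overlap.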
